A study of Saccharomyces cerevisiae BY4741 with 12 samples.

Results

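Sense transcription was compared between the set2Δ strain and the wild-type (WT) strain of Saccharomyces cerevisiae over all rows of the deposited expression table that carry a gene name, which are 6632 of 7409 rows. The other 777 rows are antisense transcripts and serve only as context. Both strains are in the BY4741 background, a MATa haploid laboratory strain with auxotrophic markers. The WT has an intact SET2 gene, and set2Δ lacks it and, by the methods of the study, carries the empty vector pRS415 with a LEU2 marker. No plasmid is named for the WT, although LEU2 RNA was also high in it, as given below. The values of the set2-Y149F and set2-Y236F strains, in which set2Δ cells express a point mutant of SET2 from pRS415, are given beside a few genes. Cultures received no treatment, were diluted to an OD600 of 0.2 at 30 °C and were collected at an OD600 of 0.8. The growth protocol names YPD or SD without assigning a strain to either, while the study speaks of rich medium for all strains, so whether the medium differed between strains is not settled by these sources. Whether the WT carried a plasmid is not settled either, so an effect of a plasmid and an effect of the deletion cannot be told apart. Polyadenylated RNA was sequenced with its strand kept, and the labels list 3 libraries per strain.

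Set2 is the histone H3 lysine 36 methyltransferase of yeast. It travels with elongating RNA polymerase II and places the mark over gene bodies, where the mark recruits the Rpd3S histone deacetylase complex through Eaf3 and Rco1. Loss of the mark leaves coding regions more acetylated and is known for transcripts that start inside genes, on the sense or the antisense strand.

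The table holds 1 mean per strain in FPKM, fragments scaled to gene length and sequencing depth, so no SD, depth or p-value can be given and no difference below was tested against the spread of libraries. Throughout, a difference is log2(FPKM + 1) in set2Δ minus the same in the WT, a scale that understates the differences of weakly expressed genes, and a gene is called 2-fold higher or lower where it reaches 1 or -1. The calls are descriptions of these strain means, and how many of the 3 libraries each mean holds is not settled by the table. In bulk cultures, a different share of cells in some state and a different amount of RNA per cell cannot be told apart.

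SET2 itself (YJL168C, chrX:102227-104428, minus strand) was at 29.1 FPKM in WT cells and at 0.190 in set2Δ cells. The mating type markers gave MATa cells in both strains. The a-factor genes MFA1 and MFA2 were at 1163 and 2123 FPKM in WT cells and at 1338 and 2043 in set2Δ cells, and STE2, BAR1 and AGA2 were between 59.9 and 246 in both. Of the alpha-specific genes, MF(ALPHA)1 was under 1 FPKM in both strains, MF(ALPHA)2 was at 1.02 and 4.31, STE3 at 4.61 and 0.959, and SAG1 at 16.7 and 20.7. LEU2, which is deleted in BY4741 and carried by pRS415, was at 3209 FPKM in WT cells and 6023 in set2Δ cells. The WT value was above those of set2-Y149F (1775) and set2-Y236F (1890), which carry pRS415. The source of LEU2 RNA in the WT is not given. HIS3 was at 167 FPKM in WT cells and 106 in set2Δ cells. The 777 antisense transcripts had a median of 0.464 FPKM in WT cells and 3.98 in set2Δ cells, as the study listed them for being higher in the mutant.

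Most sense genes stood close to the WT. Of the 6632 annotated rows, 3784 (57.1%) were within 1.2-fold and 6362 within 2-fold, around a median difference of -0.07. In set2Δ, 191 rows were 2-fold higher, which is 2.88% of the rows compared, and 79 were 2-fold lower, which is 1.19%. RefSeq lists 5904 of the rows. Among its 5876 protein-coding genes on the nuclear chromosomes, 119 (2.03%) were higher and 65 (1.11%) were lower, with a median of -0.09 and all but the 10% at either end between -0.46 and 0.38. These shares are the background for the counts of gene groups below. As both medians were below 0, most rows lay below 0, which is the background for counts of members below or above 0. The exact share was not computed. The plot of all rows shows that the rows called higher spread over the whole range of expression, with the densest part below 20 FPKM.

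**Figure D1:**
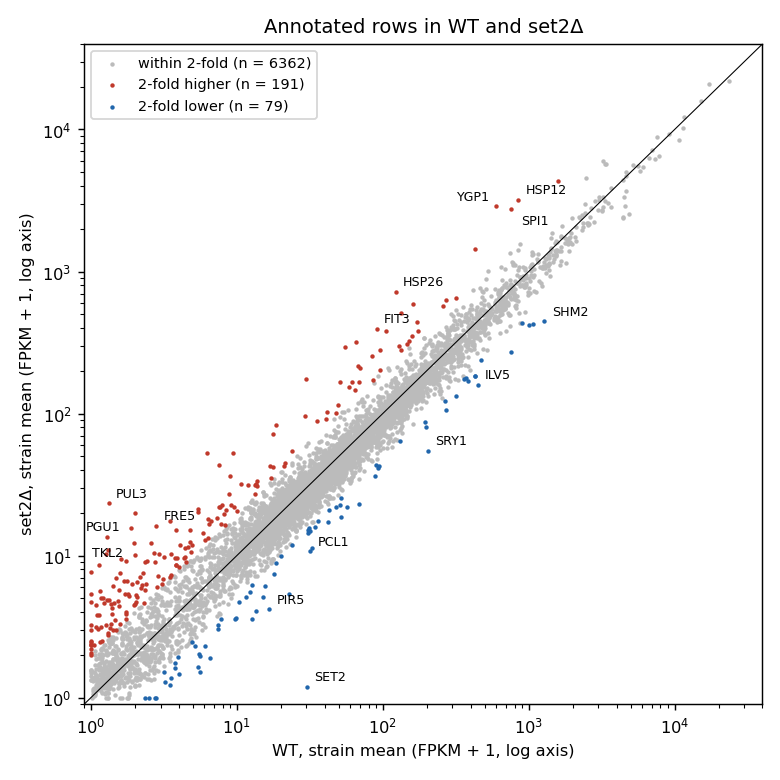
Each point is 1 annotated row, with the WT mean on the x axis and the set2Δ mean on the y axis, both as FPKM + 1 on log axes, and the line marks equal values. The 191 rows called higher (red) lie above the line and the 79 called lower (blue) below it, with SET2 farthest below.

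The genes of the general stress response held more higher genes than any other list described here. This programme, driven by the paralogous zinc-finger activators Msn2 and Msn4, is known for its induction when growth slows, glucose runs low or cells meet heat, oxidants or osmotic shock. Of its 37 listed genes, 15 were 2-fold higher and 1 was lower, and the median was 0.82. HSP26, which encodes a small heat shock protein, was at 121 FPKM in WT cells and 722 in set2Δ cells, a difference of 2.56. YGP1, a secreted glycoprotein made when nutrients run short, was at 598 and 2871. HSP12, a membrane-protecting hydrophilin, was at 849.9 and 3213, and SPI1, a cell wall protein induced in stationary phase, at 752 and 2772. DDR2, a small protein induced by many stresses, was at 426 and 1431, the cytosolic catalase gene CTT1 at 104 and 381, and ALD3, an aldehyde dehydrogenase gene, at 50.1 and 167. HSP26, YGP1, HSP30, HSP12 and SPI1 were also the 5 highest differences among the 590 most abundant RefSeq rows, those with a mean of at least 282.8 FPKM.

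Not every gene of the programme was higher. TMA10 was at 4451 FPKM in WT cells and 4439 in set2Δ cells, and RGI2, which is needed for energy metabolism under respiratory growth, was at 67.7 and 21.9, a difference of -1.58. Its paralog RGI1 was at 3054 and 3358. The RNA of the activators themselves was close to the WT, with MSN2 at 31.3 and 29.1 FPKM and MSN4 at 70.3 and 68.0. The list of heat shock chaperones, by comparison, had a median of 0.04. It leaves out HSP26, which is counted in the stress list, so the comparison depends on how genes were assigned to lists. Of these 22 genes, 2 were 2-fold higher, SSE2 (129 and 300.2 FPKM), a nucleotide exchange factor of Hsp70, and HSP30 (133 and 512), a membrane protein that restrains the plasma membrane proton pump. SSA4 and SSA1 of the Hsp70 family and HSP82 of the Hsp90 family differed by -0.13, 0.09 and 0.02.

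The stress response element, to which Msn2 and Msn4 are known to bind, has the core AGGGG, and it was searched on either strand in the 250 bases before the start codon. It was present before 1120 of 5876 protein-coding genes (19.1%), 33 of the 119 higher genes (27.7%), 7 of the 65 lower genes (10.8%) and 22 of the 37 stress genes (59.5%). The median difference was -0.11 for genes with no match, -0.00 for the 988 genes with 1 match and 0.14 for the 132 with 2 or more. The stress list is known to be rich in this element, so the share in the list is a property of the list. The 150 bases that begin 250 bases before the start codon are printed from the R64 genome for HSP12, CTT1 and DDR2, all called higher and named above, with the element in capitals. They are at chrVI:107006-107155 (plus strand), chrVII:654384-654533 (plus strand) and chrXV:231856-232005 (minus strand).

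HSP12: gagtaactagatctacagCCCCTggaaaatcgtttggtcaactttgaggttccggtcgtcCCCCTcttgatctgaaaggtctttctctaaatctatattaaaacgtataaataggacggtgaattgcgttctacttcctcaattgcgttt
CTT1: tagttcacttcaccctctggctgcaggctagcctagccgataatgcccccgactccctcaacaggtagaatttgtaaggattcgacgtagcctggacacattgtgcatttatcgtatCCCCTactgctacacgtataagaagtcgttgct
DDR2: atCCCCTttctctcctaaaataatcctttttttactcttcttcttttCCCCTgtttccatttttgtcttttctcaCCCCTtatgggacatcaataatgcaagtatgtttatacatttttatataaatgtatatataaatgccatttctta

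HSP12 has 2 matches in these bases, CTT1 has 1 and DDR2 has 3, each read as CCCCT on the strand of the gene. Beside them stood ratios of set2Δ to WT of 3.78 for HSP12, 3.66 for CTT1 and 3.36 for DDR2.

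The pentose phosphate pathway, which makes NADPH and ribose, had 4 of 12 genes higher and none lower. Its median of -0.07 was close to that of all rows and was 0.03 with both strains scaled to the same median. Each of the 4 higher genes has a paralog of the same activity that was not called. TKL2, the minor transketolase, was at 0.961 FPKM in WT cells and 11.3 in set2Δ cells, while the major TKL1 was at 353 and 249. GND2 (6-phosphogluconate dehydrogenase) was at 15.9 and 41.9 against 692 and 555 for GND1. SOL4 (6-phosphogluconolactonase) was at 172 and 438 against 203 and 171 for SOL3, and NQM1 (transaldolase) at 63.5 and 144 against 858 and 844 for TAL1. In each of these pairs the difference was above 1 for the first gene and below 0 for its paralog, which was the more abundant one in WT cells. In set2Δ cells SOL4 was above SOL3, while the other 3 higher genes stayed below their paralogs. SOL4 and NQM1 are also on the stress list.

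In the respiratory chain, CYC7, the cytochrome c isoform known from low oxygen and stress, was at 258 and 571 FPKM, above CYC1, the other isoform, in both strains (142 and 99.9). CYC7 was the only called gene of 35 in that list, which had a median of 0.11. Trehalose and glycogen metabolism, which builds reserve carbohydrate, had 15 of 19 genes above 0 and a median of 0.44. One of them was called higher, PIG2, a putative targeting subunit of the Glc7 phosphatase (48.7 and 114 FPKM). TPS1 and TSL1 of the trehalose synthase complex were at 781 and 292 FPKM in WT cells and at 1155 and 501 in set2Δ cells. Among the stationary phase genes, 3 of 14 were higher, with SPG1 at 28.9 and 173 FPKM, FMP45 at 6.50 and 21.0 and SPG4 at 20.1 and 42.0. HXT2, a high-affinity glucose transporter, was the one called gene of 24 in hexose transport and sensing, at 902 FPKM in WT cells and 433 in set2Δ cells. Its difference of -1.06 was -0.97 with both strains scaled to the same median, which ends the call. HXT4, a transporter of the same family, differed by 0.80.

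Redox defence had 4 of 33 genes higher and a median of 0.08. These were the peroxisomal catalase gene CTA1 (4.38 and 19.3 FPKM), CTT1, the phospholipid peroxidase gene GPX1 (83.6 and 255) and the glutathione transferase gene GTT2 (20.5 and 43.6). The abundant members TSA1, SOD1 and AHP1 differed by 0.09, 0.07 and -0.18.

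**Figure D2:**
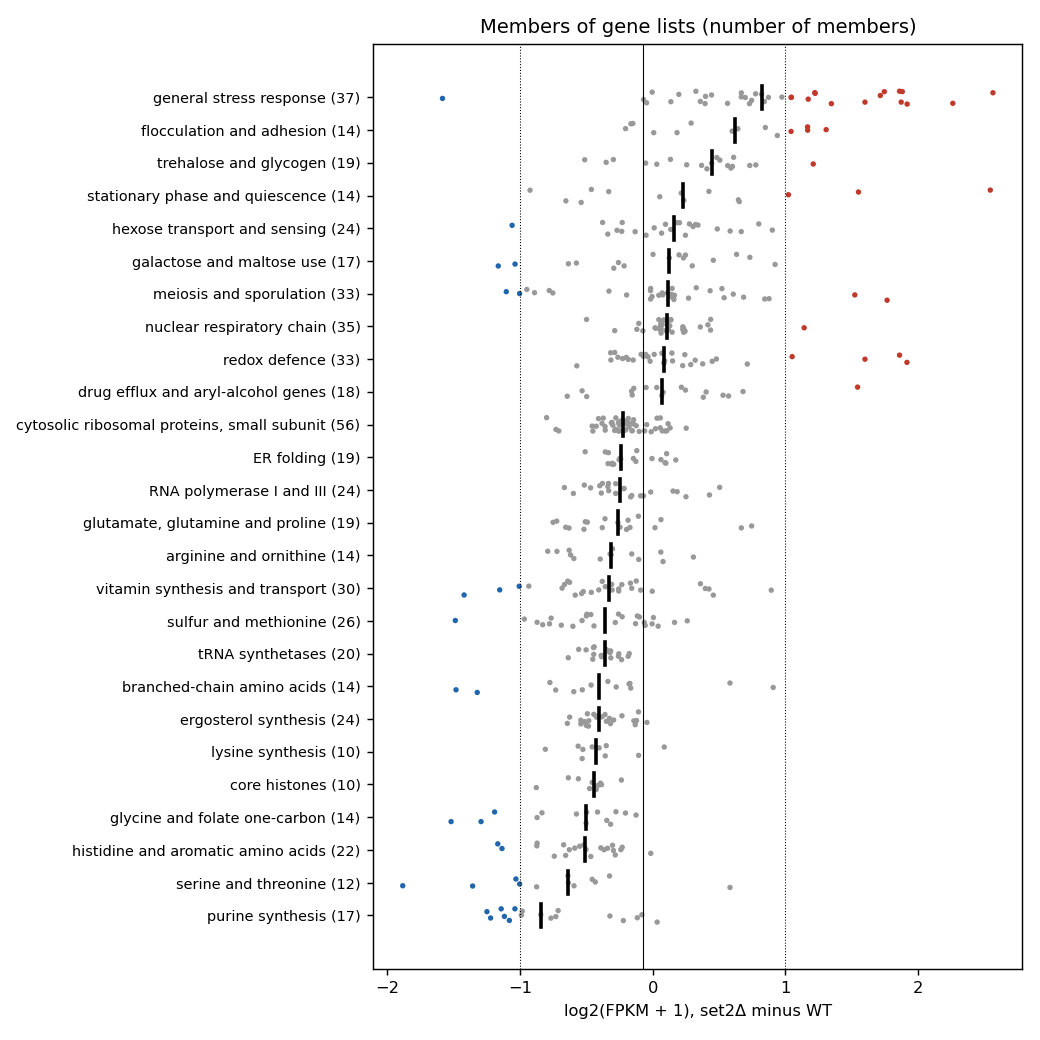
Each point is 1 gene of a list and shows the difference of set2Δ from the WT in log2(FPKM + 1), with the number of members in parentheses and a black bar at the median of the list. The lists are the 16 with the lowest and the 10 with the highest medians among those of at least 10 members. SET2 is in none of them. Dotted lines mark -1 and 1 and the solid line the median of all rows, and the medians run from -0.84 for purine synthesis to 0.82 for the general stress response.

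De novo purine synthesis was the list with the lowest median, -0.84. Its enzymes build IMP, the precursor of AMP and GMP, and the transcription factors Bas1 and Pho2 are known to activate them when adenine is short. Of 17 genes, 16 were below 0, 6 were 2-fold lower and none was higher. ADE17, which carries out the last steps to IMP, was at 1001 FPKM in WT cells and 421 in set2Δ cells, a difference of -1.25. ADE5,7 was at 430.2 and 184, ADE4, the committing amidotransferase, at 93.3 and 41.8, ADE6 at 264 and 121, ADE3 at 372 and 176 and ADE2 at 357 and 173. With both strains scaled to the same median, ADE3 and ADE2 fell inside the threshold and 4 genes were called. ADE1 and the IMP dehydrogenase gene IMD2 lay just inside the threshold, at -0.99 and -0.98. ADE16, the paralog of ADE17, was at 245 and 250.3 FPKM, the one difference above 0, and GUA1, which makes GMP, was at 257 and 237. BAS1 RNA was at 19.9 and 16.9.

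One-carbon metabolism, which supplies the formyl groups for purines, had all 14 genes below 0, 3 of them called lower, and a median of -0.50. SHM2, the cytosolic serine hydroxymethyltransferase, was at 1282 FPKM in WT cells and 447 in set2Δ cells, the lowest difference among the most abundant genes (-1.52). The mitochondrial SHM1 was at 249.9 and 217. GCV2, the glycine decarboxylase, was at 196 and 79.3, and MTD1, a cytosolic dehydrogenase of the folate cycle, at 384 and 168. Serine and threonine metabolism had 4 of 12 genes lower and a median of -0.64. SRY1, a 3-hydroxyaspartate dehydratase, was at 202 and 53.9 FPKM (-1.88), SER3 at 272 and 106, its paralog SER33 at 129 and 62.8 and SER1 at 473 and 235.7. SER33 and SER1, which lay close to the threshold, were not past the threshold under either scaling or with a pseudocount of 10, which leaves 2 of 12 genes called. CHA1, which degrades serine and threonine, was the one member above 0, at 105 and 157.

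Other amino acid pathways lay on the same side with fewer calls. Histidine and aromatic amino acid synthesis had all 22 genes below 0 and a median of -0.51, with HIS7 at 193 and 85.5 FPKM and ARO10, a decarboxylase of the Ehrlich pathway, at 47.0 and 20.9. In branched-chain synthesis, ILV5 was at 445 and 159 and ILV3 at 1071 and 428, with a median of -0.40 over 14 genes. The highest member of that list, at 0.91, was LEU2, which is deleted in BY4741 and carried by pRS415. MET6, the methionine synthase, was at 756 and 269 FPKM and was the one called gene of 26 in sulfur metabolism (median -0.36). Lysine synthesis (median -0.43, 10 genes) and arginine metabolism (-0.32, 14 genes) had none called. SHM2, MET6, ILV5, ILV3 and ADE17 were the 5 lowest differences among the 590 most abundant rows. GCN4, which encodes the activator of amino acid synthesis and is controlled mainly at translation, was at 1248 and 1064 FPKM. In contrast, genes for poor nitrogen sources had a median of 0.03 with 0 of 19 called, and amino acid permeases had 1 of 27, PTR2, a peptide transporter (8.14 and 21.6).

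The hexamer TGACTC, which is the core of the sites of both Gcn4 and Bas1, was searched in the same windows on either strand. It was present before 373 of 5876 protein-coding genes (6.35%), 17 of the 65 lower genes (26.2%) and 3 of the 119 higher genes (2.52%). The lists for purines (8 of 17), one-carbon metabolism (8 of 14), serine and threonine (6 of 12) and histidine and aromatic amino acids (11 of 22) held it often, as is known of these pathways. The median difference was -0.09 for genes with no match, -0.19 for the 349 with 1 match and -0.33 for the 24 with 2 or more. Genes with 2 or more include 4 of the purine list, 2 of the one-carbon list and 2 of the histidine and aromatic list. These medians thus overlap with those of the lists, and genes outside the lists were not examined apart. As a comparison, the GATA core GATAAG was present before 12.7% of all genes, 13.4% of the higher and 16.9% of the lower genes. The 150-base stretches that begin 250 bases before the start codon follow for ADE17, ADE2 and SHM2, with the hexamer in capitals. They lie at chrXIII:509381-509530 (minus strand), chrXV:566292-566441 (minus strand) and chrXII:259502-259651 (minus strand).

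ADE17: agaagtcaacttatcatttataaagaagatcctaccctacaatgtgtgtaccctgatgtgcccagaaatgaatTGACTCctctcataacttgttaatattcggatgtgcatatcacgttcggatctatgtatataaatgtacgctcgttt
ADE2: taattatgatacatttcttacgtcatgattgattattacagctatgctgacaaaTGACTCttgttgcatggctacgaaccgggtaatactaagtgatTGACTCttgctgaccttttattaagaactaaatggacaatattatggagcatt
SHM2: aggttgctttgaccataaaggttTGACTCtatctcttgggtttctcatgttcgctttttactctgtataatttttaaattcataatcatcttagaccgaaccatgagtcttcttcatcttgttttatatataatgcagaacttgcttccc

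ADE2 has 2 matches and ADE17 and SHM2 have 1 each, all in the orientation of the gene, and the 3 genes had ratios of set2Δ to WT of 0.485, 0.420 and 0.348.

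**Figure D3:**
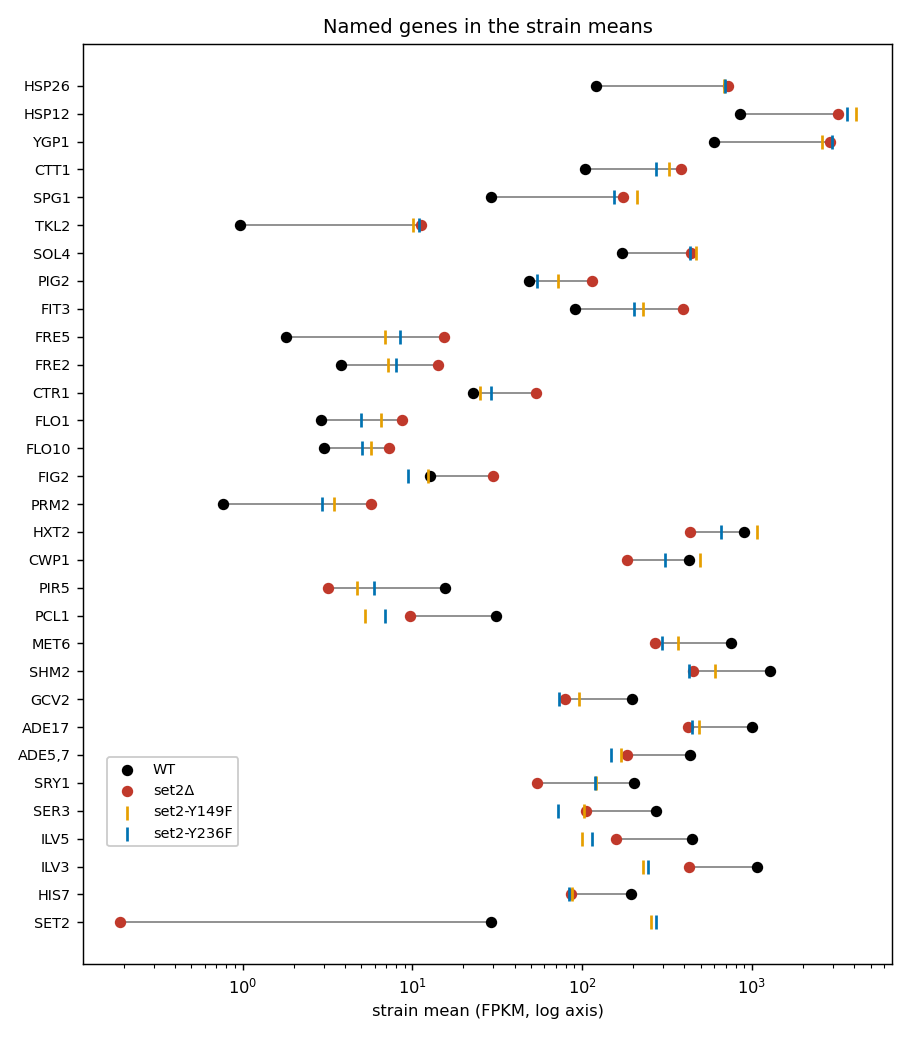
Strain means in FPKM on a log axis for 31 named genes, with the WT in black, set2Δ in red and the point mutants as coloured ticks, and a line from the WT to set2Δ. Each symbol is 1 strain mean with no error. HSP26 lies at 121 in WT cells and 722 in set2Δ cells, and SHM2 at 1282 and 447.

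The point mutants share the WT mean with set2Δ, so their values stand only side by side. SET2 RNA was at 253 FPKM with Y149F and 271 with Y236F, above the 29.1 of the WT. The stress list had medians of 1.25 and 1.00 (0.82 in set2Δ), and branched-chain synthesis -0.71 and -0.83 (-0.40). Purine synthesis was at -0.79 and -0.80 (-0.84), and flocculation and adhesion at 0.29 and 0.02 (0.62). ADE17 was at 485 FPKM with Y149F and at 444 with Y236F, HSP26 at 681 and 690.0 and SHM2 at 604 and 425. Other genes lay nearer to the WT than to set2Δ on the log2 scale in both. FIG2 was at 12.4 and 9.40 FPKM, CTR1 at 25.2 and 29.1, CWP1 at 494 and 309 and SRY1 at 120.2 and 118.8.

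Genes of the translation machinery differed little one by one but lay mostly below 0, as did most protein-coding genes, whose median was -0.09. The 20 tRNA synthetase genes were all below 0 (median -0.36), from VAS1 at -0.64 to THS1 at -0.18. Ribosomal protein genes had medians of -0.22 for the small subunit (56 genes, 46 below 0) and -0.20 for the large subunit (81 genes, 73 below 0), and ribosome biogenesis -0.18 over 53 genes. None of these genes was called in either direction. Ergosterol synthesis showed the same form, with all 24 genes below 0, none called and a median of -0.40, from the transcription factor gene UPC2 at -0.64 to the squalene synthase gene ERG9 at -0.04. With both strains scaled to the same median these lists stayed below 0, at -0.27 for the synthetases, -0.31 for ergosterol, -0.13 and -0.11 for the small and large ribosomal subunits and -0.09 for ribosome biogenesis, so the ribosomal medians moved by more than 1.5 times.

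In the lists of chromatin genes SET2 was the one gene called. Apart from SET2, none of the 10 genes of Set2 and its partners was called, with RCO1, a subunit of Rpd3S, at 22.1 FPKM in WT cells and 33.5 in set2Δ cells and EAF3 at 153 and 146. None of 24 other histone modifiers or 22 elongation factors and histone chaperones was called, and their medians were -0.10 and -0.12. The 10 core histone genes were not called either but were all below 0, with a median of -0.44 (-0.35 with both strains scaled to the same median), from HTA1 (946 and 515 FPKM) to HTB2 (793 and 673). Histone mRNAs of yeast carry poly(A) tails and peak in S phase. PCL1, a cyclin of the Pho85 kinase expressed at Start, was the one called gene of 26 in cell-cycle control, at 30.9 and 9.75 FPKM, whereas the G1 cyclin gene CLN2 was at 47.5 and 48.9.

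Metal uptake divided within its lists. Of 26 genes of iron uptake, 3 were higher and none lower, with a median of 0.06. FIT3, a cell wall mannoprotein that retains siderophore-bound iron, was at 90.2 FPKM in WT cells and 395 in set2Δ cells. FRE5, a putative ferric reductase, was at 1.81 and 15.3, and the ferric reductase gene FRE2 at 3.79 and 14.2. FET3 and FTR1, the high-affinity ferroxidase and permease, were at 227 and 258 and at 68.4 and 40.3, so the members of the regulon did not lie on one side. In the list for zinc, copper and cadmium, 4 of 18 genes were higher and none lower, with a median of -0.05. None of the 4 was called with a pseudocount of 10. They included PCA1, a cadmium exporter (10.8 and 30.4 FPKM), and HEF3, a paralog of elongation factor 3 that is induced by low zinc (7.20 and 18.7). The others were the copper transporter gene CTR1 (22.9 and 53.8) and the metallothionein gene CRS5 (84.7 and 172), which RefSeq lists as a pseudogene. The metallothionein gene CUP1-1 was at 4421 and 2421 FPKM, and its near-identical copy CUP1-2 shares its reads.

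FIT3 and FRE5 are divergent neighbours on chromosome XV. The core TGCACCC of the sites of the iron regulator Aft1, a motif added after the values were seen, was present in the 250 bases before 66 of 5876 genes (1.12%), 11 of 26 iron genes and 4 of the 119 higher genes. The median difference was -0.09 for genes with no match, -0.10 for the 61 with 1 match and 0.01 for the 5 with 2 or more. Each of the pair has 1 match, read as GGGTGCA, in the 150 bases that begin 250 bases before its start codon, at chrXV:1061156-1061305 (minus strand) for FIT3 and chrXV:1061314-1061463 (plus strand) for FRE5, printed with the match in capitals.

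FIT3: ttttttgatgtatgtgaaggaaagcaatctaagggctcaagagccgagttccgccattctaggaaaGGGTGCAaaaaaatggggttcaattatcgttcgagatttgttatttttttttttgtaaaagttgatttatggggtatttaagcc
FRE5: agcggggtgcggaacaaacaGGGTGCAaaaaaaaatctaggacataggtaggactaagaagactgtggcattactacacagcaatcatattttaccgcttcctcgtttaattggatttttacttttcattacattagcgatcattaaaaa

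Genes of the cell surface differed in both directions. Flocculation and adhesion had 4 of 14 genes higher, none lower and a median of 0.62. FLO1 was at 2.90 FPKM in WT cells and 8.64 in set2Δ cells, FLO9 at 2.82 and 7.58, FLO10 at 3.02 and 7.29 and FIG2, an adhesin of mating cells, at 12.7 and 29.8. FLO1 and FLO9 have long near-identical repeats, so their values can share reads. The RNA of FLO8 and SFL1, known as regulators of these genes, was at 25.4 and 40.2 and at 6.05 and 12.5. Whether either protein was active in these cells was not measured. With a pseudocount of 10 the median of the list was 0.39 and no member was called. Of 35 cell wall and septum genes, PIR3 (60.3 and 165 FPKM) and SPI1 were higher and PIR5 (15.7 and 3.20) and CWP1 (428 and 184) were lower. Among 30 genes of the pheromone response, PRM2 and PRM3, which act in nuclear fusion, were at 0.767 and 1.16 FPKM in WT cells and 5.67 and 6.03 in set2Δ cells, while PRM5 was at 88.8 and 42.7, a call that ended under either scaling. In the subtelomeric PAU and COS families, PAU18, PAU6 and COS10 were lower (12.5 and 3.08, 14.2 and 4.09, and 8.68 and 2.57 FPKM), and the median of the 35 members was 0.06. Members of such families can share reads, so the calls of PAU18 and PAU6, both of 363 bp, may not be separate.

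Several of the largest differences fell outside these groups or concerned genes almost silent in the WT. PUL3, known from Kluyveromyces as a transporter of the iron chelator pulcherrimin, was at 0.328 FPKM in WT cells and 22.3 in set2Δ cells, the highest difference of all RefSeq rows (4.13). YER053C-A, a short gene of unknown function, was at 5.25 and 52.0, and PGU1, which encodes a pectin-cleaving polygalacturonase, at 0.886 and 14.7. YTP1 was at 8.38 and 52.2 FPKM, HPF1, a mannoprotein, at 53.8 and 293, and RRT1 at 6.53 and 42.7. On the lower side, besides SET2, PIR5 and SRY1, YHR214W was at 5.54 and 0.894 FPKM, IRC18 at 4.40 and 0.654 and YIL014C-A at 31.8 and 10.3. Vitamin genes BNA2 (8.80 and 2.66 FPKM) of NAD synthesis, THI13 (4.17 and 1.32) of thiamine synthesis, whose near-identical copies share reads, and VHT1 (23.0 and 11.0), the biotin transporter, were lower, as were the phosphate transporters PHO89 (2.80 and 0.606) and GIT1 (2.95 and 0.937). IME4, an mRNA methyltransferase of meiosis, was at 0.127 and 2.83 FPKM and RED1, of the meiotic chromosome axis, at 6.66 and 21.0, whereas MEI4 and REC8 were lower at 2.77 and 0.754 and at 3.95 and 1.47. These were the called genes of lists of 30 for vitamins, 20 for phosphate uptake and 33 for meiosis and sporulation.

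Some called genes were direct neighbours. Among protein-coding genes in chromosomal order, 9 neighbouring pairs, made of 16 genes, were both higher and 2 pairs both lower. Over all protein-coding genes, 2.03% were higher and 1.11% lower. The number of pairs to be expected from these shares was not computed, so the counts do not show whether called genes cluster. The longest run is FLO10, NFT1, YKR104W and VBA5 near the right end of chromosome XI, with NFT1 at 3.81 FPKM in WT cells and 11.5 in set2Δ cells, YKR104W at 5.32 and 17.2 and VBA5 at 0.164 and 2.14. In some strains NFT1 and YKR104W form 1 transporter gene. OSI1 and YKL070W, also on chromosome XI, were at 2.51 and 16.7 and at 1.01 and 9.16, and MOH1 and RRT1 on chromosome II at 16.6 and 70.4 and at 6.53 and 42.7. FCY21 and FCY22 on chromosome V, a tandem pair of related permease genes, were at 16.7 and 40.9 and at 5.02 and 11.9. The lower pairs were COS10 with PAU6 on chromosome XIV and YAR066W with YAR068W on chromosome I. YAR066W has the same coding length as YHR214W, 612 bp, and whether these 2 rows share reads was not examined. By chromosome, the share of higher genes ran from 0.56% on chromosome X (2 of 357, with 9 lower) and 0.665% on chromosome IV (5 of 752) to 5.08% on chromosome XI (16 of 315) and 5.49% on chromosome I (5 of 91).

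The share of genes called varied with the level of expression and was larger near chromosome ends. In the lowest decile of protein-coding genes by mean FPKM, up to 7.90 FPKM, 44 of 588 were higher and 20 lower, and the counts were lowest between 41.2 and 55.8 FPKM, at 2 and 1 of 588. They were larger again in the most abundant decile, at 12 and 9 of 588, and in the one below it, at 15 and 8 of 587. Within 10000 bp of a chromosome end, 9 of 113 genes were higher and 6 lower, and beyond 100000 bp 77 and 40 of 4417, with median levels of 8.77 and 43.3 FPKM. Of the 316 genes with more than 1 coding exon, which had a median level of 134 FPKM, none was higher and 2 were lower.

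The rows that RefSeq does not list included a larger share of higher values. Of 566 with the name of an open reading frame, 56 (9.89%) were higher and 10 (1.77%) lower, with a median of 0.11 and a median level of 1.45 FPKM. At matched levels of 2 to 5 FPKM, 26 of 112 such rows were higher, against 16 of 190 protein-coding genes of RefSeq, and below 2 FPKM 22 of 327 against 10 of 260. Their positions were not used here. Another 162 rows, with the names of snoRNAs, tRNAs and other RNAs, had 14 higher and 4 lower, in libraries made from polyadenylated RNA.

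Differences also varied with the length of the gene. The median was -0.09 in the shortest decile of protein-coding genes by coding length (up to 393 bp), -0.16 between 999 and 1203 bp and 0.07 in the longest decile (above 2856 bp). In the lowest quintile of genes by mean level it was 0.15 for the longest quartile (above 1890 bp) and -0.02 for the shortest (up to 699 bp), and in the highest quintile -0.06 and -0.07. For the longest decile the set2-Y149F median was -0.11 and the set2-Y236F median -0.22. Long genes have a listed antisense transcript more often, 168 of the 588 in the longest decile. The 420 long genes without one had a median of 0.05 and those with one 0.15, and the part of antisense reads in these values was not tested.

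**Figure D4:**
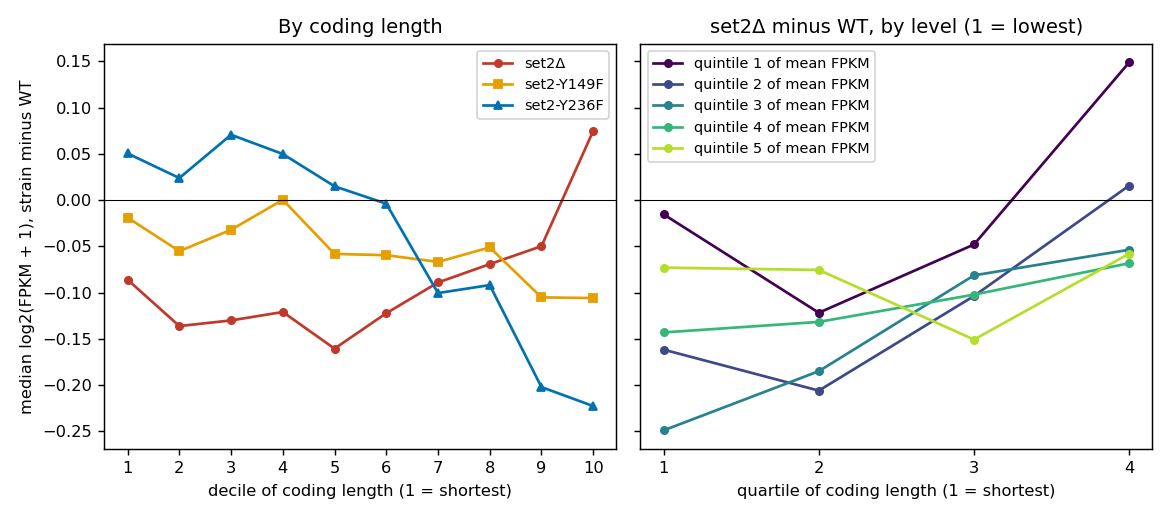
The y axis is the median difference from the WT in log2(FPKM + 1) over protein-coding genes. On the left the x axis is the decile of coding length from the shortest to the longest, with 1 line for each mutant strain. On the right it is the quartile of coding length, for set2Δ only, with 1 line for each quintile of mean FPKM. The line of set2Δ rises to 0.07 in the longest decile and that of set2-Y236F is at -0.22 there, and the lowest quintile reaches 0.15 in the longest quartile.

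Genes beside listed antisense transcripts were also compared, since such a transcript can run on into the next gene on its own strand. No protein-coding gene on the strand of a listed transcript overlapped it, which follows from how the study assembled these transcripts, from antisense and intergenic reads. The ends of listed transcripts therefore cannot show whether one runs on into a gene. Of 145 genes that start within 500 bp past the end of one on the same strand, 4 were higher and 2 lower, with a median of -0.13. The higher ones were YHL015W-A (0 FPKM in WT cells and 3.74 in set2Δ cells), JIP3 (0.690 and 5.59), YNL095C (7.48 and 20.1) and YOR072W (1.41 and 8.11), and the lower ones YIL014C-A and YPL088W (50.8 and 17.8). Where a listed transcript lay antisense to the gene itself, 5 of 683 genes (0.732%) were higher and 5 (0.732%) lower, with a median of -0.04. Of the 5064 genes with neither position, 110 (2.17%) were higher and 58 (1.15%) lower.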

How the data were processed

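Strand-specific RNA-seq of polyadenylated RNA (KAPA stranded kit, dUTP method) was made from 3 libraries per strain by the labels. Reads were handled with TopHat2 2.1.1, Cufflinks 2.2.1, HTSeq 0.13.5 and Trimmomatic 0.38 on the sacCer3 build, among the tools in the submitters' processing notes. The authors deposited FPKM as 1 mean per strain for 6632 annotated and 777 antisense rows, and the program behind the annotated values was not stated. Of the values printed with 16 significant digits, 83.5% in the WT and 83.0% in set2Δ end in 5, as means of 2 decimal numbers do, so the number of libraries behind each mean is not settled. The depth of the libraries and the spread between them are unknown, and no test was run.

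Antisense names were sorted before use, as their values follow alphabetical order. Positions of antisense transcripts are the coordinates that the authors deposited with other sheets. The deposited comparison columns (fold changes, standard errors and p-values) were not used.

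Differences of log2(FPKM + 1) between set2Δ and the WT were computed with Python 3.11.15, numpy 2.4.6 and pandas 2.3.3, with a threshold of 2-fold. The calling step was run on WT values with fixed changes put in and no noise. That checks its arithmetic only and not how it treats noisy or weakly expressed rows. Rows were matched to RefSeq on assembly R64, the sacCer3 sequence, by systematic name (5904 of 6632). Medians are described for 56 gene lists, which hold 1351 rows, and 6 listed genes had no row and were not analysed here. Named genes were SET2, the 10 highest and 10 lowest RefSeq rows, the 5 highest and 5 lowest of the most abundant decile, and up to 4 called members of each list per direction. Other members were added once their values were known, as were the neighbours and the motif TGCACCC. The members, lists and rules were chosen with earlier results of these data known. Alternatives were other pseudocounts, scalings, filters and a 1.5-fold threshold.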

Additional observations from a re-analysis of the deposited data

How the results depend on the processing

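The counts of rows called depended on the pseudocount, the threshold and the rows kept. With a pseudocount of 0.1 they were 349 higher and 182 lower, with a pseudocount of 10 they were 55 and 26, and with a 1.5-fold threshold 509 and 419. Rows with a mean of at least 5 FPKM gave 109 higher, and rows that RefSeq lists gave 121 higher. The remaining counts were within 1.5 times of 191 and 79, at 56 and 65 lower for these 2 filters, 234 and 62 with both strains scaled to the same median and 205 and 66 with both scaled to the same sum. Of 56 lists, 42 kept the sign of their median under all 6 alternatives run on medians, and 44 under both scalings. The 82 named genes were chosen for being past 2-fold. A pseudocount cannot change the sign of a difference, a smaller one only enlarges it, and the scalings moved values by at most 0.0927. That all 82 kept their sign and stayed past 2-fold at a pseudocount of 0.1 was therefore fixed by this choice. Of the 82, 42 stayed past 2-fold at a pseudocount of 10, 73 with equal medians and 75 with equal sums. The calls of MAL33, INP2, SER33, SER1, VHT1, PRM5 and REC8 ended under both scalings, and those of HXT2 and GIT1 with equal medians only. With a pseudocount of 10 no gene stayed called in 11 lists, among them flocculation, pheromone response, meiosis, phosphate uptake, vitamins, galactose and maltose, metals other than iron, and the PAU and COS families, and TKL2 was no longer called. Leaving out single libraries was not run, and no paired analysis was possible, because the table used here holds 1 mean per strain. Depth is unknown, so counting error at low FPKM could not be given.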
